A study of Citrus reticulata with 36 samples.

Results

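Nucellus was compared with integument in ovules of ponkan mandarin (Citrus reticulata) at 32 days after pollination (DAP), the last of 3 stages sampled. The comparison used the 6 nucellus libraries of that stage against its 6 integument libraries, 12 of 36 in all. They were chosen by the tissue, stage and cultivar in their column names. The nucellus is the maternal tissue that encloses the embryo sac, and in citrus species with nucellar embryony some of its cells become embryos without fertilisation. The integuments surround the nucellus and later form the seed coat. Both are sporophytic maternal tissues, while embryo and endosperm develop inside them.

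Cells were cut from ovule sections with a microscope-guided laser (laser capture microdissection). The 32 DAP groups were the nucellus of Huagan No.4 ponkan (labelled MT), the nucellus of Egan No.1 ponkan (labelled WT), the integument of MT and the integument of WT, with 3 libraries each. What MT stands for is not stated, and the labels give no treatment or transgene. The other libraries held the same tissues of both cultivars at 18 and 28 DAP, again 3 per group. RNA of each capture was amplified from random primers with a linear amplification kit and read from both ends on 2 models of Illumina instrument, which the labels do not assign to libraries. The series calls its replicates biological but does not say which plants they came from. The p-values therefore measure the spread between these libraries.

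Each 32 DAP library held between 12976584 and 20022299 counts over 61394 to 69127 detected features, of 128861 in the table. A count of 0 allows a level of up to between 0.133 and 0.206 CPM in these libraries (3 counts on the scaled totals, counting error only). The 57344 features tested took 99.73% to 99.88% of a library's counts. The feature identifiers are not paired with gene names in the files, and features are given here by identifier, without a function. Levels are given in CPM, where each library's total is first adjusted by TMM for a few abundant features. A gap is the log2 fold change of nucellus over integument. A feature was called at an adjusted p under 0.05 in edgeR's quasi-likelihood test.

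Before the comparison, the tissue labels were checked with features that the 24 libraries of 18 and 28 DAP called between the tissues, since no marker gene could be looked up. Features over 16-fold apart with at least 10 CPM there gave 104 nucellus markers and 257 integument markers. The summed level of the nucellus markers ran from 9400 to 27900 CPM in the 6 nucellus libraries, against 262 to 848 CPM in the 6 integument libraries. The summed level of the integument markers ran from 215 to 432 CPM in the nucellus, against 7230 to 10700 CPM in the integument. All 12 libraries went with their labels, and each tissue held a low level of the other's markers. Whether that low level was expression in the cells or RNA of neighbouring tissue was not tested.

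The libraries divided by tissue along the first principal component of log2 CPM, which held 32% of the variance and of which tissue accounted for 95%. The second component held 25.9%, and 54.1% of its spread went with cultivar. One library stood apart. The second MT integument library lay at -45.1 on the first component and -233.9 on the second, while the other 5 integument libraries lay between -133.1 and -111 on the first. Its nearest library across all tested features was the MT nucellus library of the same number (r = 0.883), and it was the single library of the 12 whose nearest neighbour came from the other tissue. At the other extreme, WT libraries 2 and 3 were nearly alike in the nucellus (r = 0.971) and in the integument (r = 0.975). Their counts had a chi-square per degree of freedom of 9.9 and 7.8, against 29.3 to 75 for the other replicate pairs. This measure sets a pair against counting noise alone, which amplified RNA of a single capture may also exceed. They were counted as separate libraries because the labels give them as such.

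**Figure D1:**
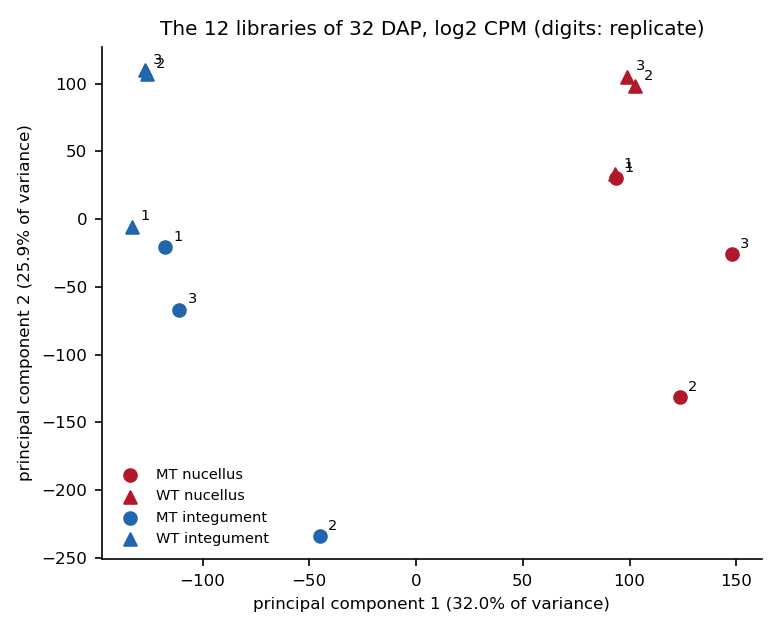
Principal components of log2 CPM over the tested features in the 12 libraries of 32 DAP, component 1 (32% of variance) against component 2 (25.9%), with red nucellus and blue integument, circles MT and triangles WT, and digits for replicates. The tissues lie on opposite sides of component 1, and MT integument library 2 lies apart at the lower middle.

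At 32 DAP the tissues differed widely, and the gap was lopsided towards the integument. Of the tested features 7584 (13.2%) were called. In the nucellus 2759 (4.81%) were higher and 4825 (8.41%) lower than in the integument. Among called features, the gaps were also wider on the integument side. The median log2 fold change was 1.35 among nucellus-high features and -2.06 among integument-high features, against 0.03 over all tested features. Integument-high calls lay more often at low levels, where only a wide gap can pass the test. These medians were thus not compared at equal level. Over 4-fold gaps numbered 846 nucellus-high and 2488 integument-high features, and over 16-fold gaps 300 and 853. In bulk captures, fewer cells of a type and less RNA per cell cannot be told apart.

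Same-numbered nucellus and integument libraries deviated together from their group means, and they were also compared as pairs. The labels do not say whether same-numbered captures came from the same ovules. With the pairs in the model, 11005 features (19.2%) were called, 4655 (8.12%) nucellus-high and 6350 (11.1%) integument-high, and 7374 of the 7584 features above were among them. The direction was the same in all 6 pairs for 2299 of the 2759 nucellus-high features (83.3%) and 4016 of the 4825 integument-high features (83.2%). The calls came from these same libraries, so this agreement is in part fixed by the selection. Complete separation was less frequent, in 3674 features (6.41%). All 6 nucellus libraries lay above all 6 integument libraries for 1358 features (2.37%), and below them for 2316 (4.04%).

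Outside the tissue-specific features described further on, the widest gaps called in each cultivar alone, among features at or above the median level and with the tissues fully separated, were over 100-fold. The feature c36715_g1 had a lowest, median and highest level of 169, 682 and 836 CPM in the nucellus, against 1.24, 2.7 and 3.36 CPM in the integument. Its lowest nucellus library was the first WT library, far below the other WT values of 614 and 836 CPM but still above every integument library. The gap was 7.86 ± 0.75 (SE; edgeR, adjusted p = 1.63e-08). Per length, its mean was 2400 FPKM in the nucellus and 9.94 FPKM in the integument.

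The feature c35551_g1 had 25.8, 65.7 and 114 CPM in the nucellus, against 0.162, 0.338 and 0.747 CPM in the integument. The groups did not overlap, and the same WT library was again the lowest of the nucellus. Its gap was 7.43 ± 0.48 (edgeR, adjusted p = 5.46e-12).

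In the opposite direction, c51494_g1 had 0.198, 0.442 and 1.23 CPM in the nucellus, against 30.7, 97.9 and 140 CPM in the integument. Its gap was -6.99 ± 0.39 (edgeR, adjusted p = 6.39e-13). Within the integument the 3 MT libraries, at 83.7, 30.7 and 52.9 CPM, were all below the WT libraries, at 140, 112 and 117 CPM. The feature c97589_g1 had 0.198, 0.406 and 0.938 CPM in the nucellus, against 1.1, 75.4 and 85.7 CPM in the integument. Its gap was -6.91 ± 0.88 (edgeR, adjusted p = 1.94e-06). The 1.1 CPM belonged to MT integument library 2, the one that stood apart, and the other 5 integument libraries held 65.9 CPM or more. All 4 features kept their direction and call when any one library was left out.

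Among called features the gap varied with level. With the tested features divided by mean level into 4 bins of equal size, 11.5%, 13.8%, 13.7% and 14% were called from the lowest to the highest bin. The median absolute gap of those called fell over the same bins, with 3.8, 2.14, 1.31 and 0.99 on the log2 scale. At low counts only a wide gap can pass the test, so this decline is in part set by the call. The balance between tissues also shifted with level. In the lowest bin 420 features were nucellus-high and 1222 integument-high, and in the highest 1032 and 975. Among the 100 most abundant features, each averaging 454 CPM or more, 10 were nucellus-high, 9 of them by over 4-fold, and 27 were integument-high, none of them by over 4-fold.

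Tissue-specific features were defined by detection as well as by the test: at least 1 CPM in every library of one tissue, and at most 3 counts in every library of the other. The rule gave 13 nucellus-specific and 38 integument-specific features. None of the 13 was at 0 in every integument library, and 2 of the 38 were at 0 in every nucellus library. They were not abundant. Their mean level in the tissue that held them ran from 2.01 to 13.9 CPM (median 2.98) in the nucellus and from 1.37 to 8.94 CPM (median 3.6) in the integument. Both lists were longer without the second MT pair, at 20 and 80 features. The detection rule is easier to meet with fewer libraries, so longer lists are in part set by the removal itself.

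The most abundant nucellus-specific feature was c974_g1, with 16.4, 12.4 and 38.8 CPM in MT nucellus and 3.33, 7.56 and 4.81 CPM in WT nucellus. In the 6 integument libraries it had 5 counts in all, and no more than 0.0995 CPM. The levels were 285-fold apart (95% counting interval 122 to 876), and the MT nucellus libraries lay above the WT ones. Its gap did not pass the test of a difference between cultivars (edgeR, adjusted p = 1).

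The other named nucellus-specific feature, c51677_g1, was more even, with 14.3, 9.5 and 6.92 CPM in MT nucellus and 5.33, 6.12 and 7.34 CPM in WT nucellus. It had 3 counts in all 6 integument libraries together, a ratio of 308 (95% counting interval 105 to 1490).

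Of the integument-specific features, c49024_g1 had 11 counts over the 6 nucellus libraries and at most 0.149 CPM in any of them. In the integument it had 11.2, 1.51 and 3.36 CPM in MT and 6.62, 11 and 20 CPM in WT. The ratio of integument to nucellus was 100 (95% counting interval 56.1 to 201). For c108805_g1 the 6 nucellus libraries held 8 counts, against 11, 2.4 and 3.36 CPM in MT integument and 14, 8.15 and 11.8 CPM in WT integument, a ratio of integument to nucellus of 128 (95% counting interval 65.2 to 298). In both, MT integument library 2 was the lowest of the integument.

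**Figure D2:**
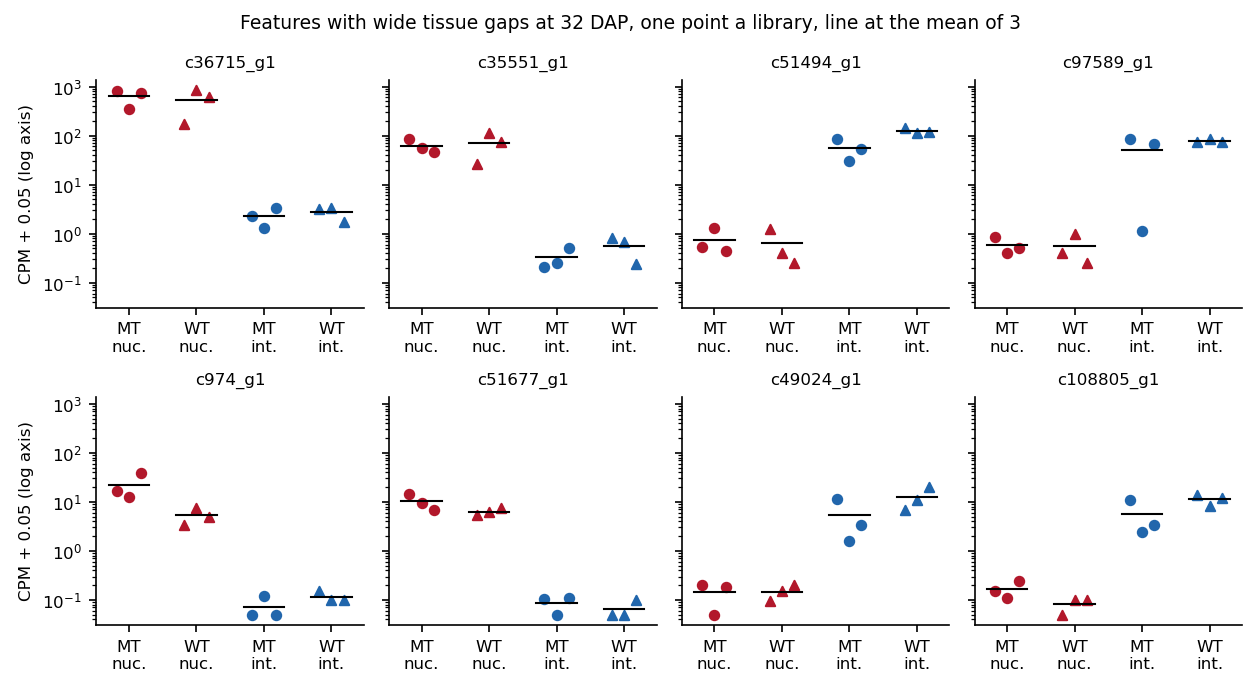
CPM plus 0.05 on a log axis for 8 features in each library of 32 DAP, nucellus (red) left of integument (blue) and MT (circles) left of WT (triangles), with a line at the mean of 3 libraries. In the top row the tissues lie over 100-fold apart on the fitted scale, with c97589_g1 at 1.1 CPM in MT integument library 2, and in the bottom row the lower tissue holds at most 3 counts in a library.

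These features were not specific by the same rule at every stage. At 18 DAP 2 and at 28 DAP 2 of the 13 nucellus-specific features met both criteria, and 0 met them over both earlier stages together. For the 38 integument-specific features the numbers were 12, 10 and 4. The tissue order was steadier than the detection rule. Over all 24 earlier libraries, 8 of the 13 had every nucellus library above every integument library, and 33 of the 38 had the reverse. The feature c974_g1, for example, had 6.59 to 74.8 CPM in the nucellus at 18 DAP, against 0 to 0.575 CPM in the integument, and missed the rule by its integument counts alone.

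The gap was then taken within each cultivar. In MT 3144 features (5.48%) were called, 1031 (1.8%) nucellus-high and 2113 (3.68%) integument-high, and with pairs 6121 (10.7%). On log2(FPKM + 1) the MT calls were more even, at 1565 nucellus-high and 2016 integument-high (limma). In WT 3940 features (6.87%) were called, 1336 (2.33%) nucellus-high and 2604 (4.54%) integument-high, and with pairs 6737 (11.7%). These counts were lower in several fits that left libraries out, which also have fewer libraries in a group. The MT count was 1560 without MT nucellus library 3 and 1702 without the second MT pair, and the WT count was 2444 without WT nucellus library 2, 2485 without WT nucellus library 3 and 1752 without the third WT pair.

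The cultivars gave the same direction for nearly all features called in either. Of the features called in MT, 96.8% had the same sign in WT, and of those called in WT, 97% had the same sign in MT, against 65.5% of all tested features. Both cultivars called 1875 features, 59.6% of the MT calls and 47.6% of the WT calls, and 1874 of them had the same sign. Across all tested features the MT gap and the WT gap correlated with r = 0.638, where features share libraries and are not independent replicates. The plot of the gap in each cultivar shows the same diagonal.

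**Figure D3:**
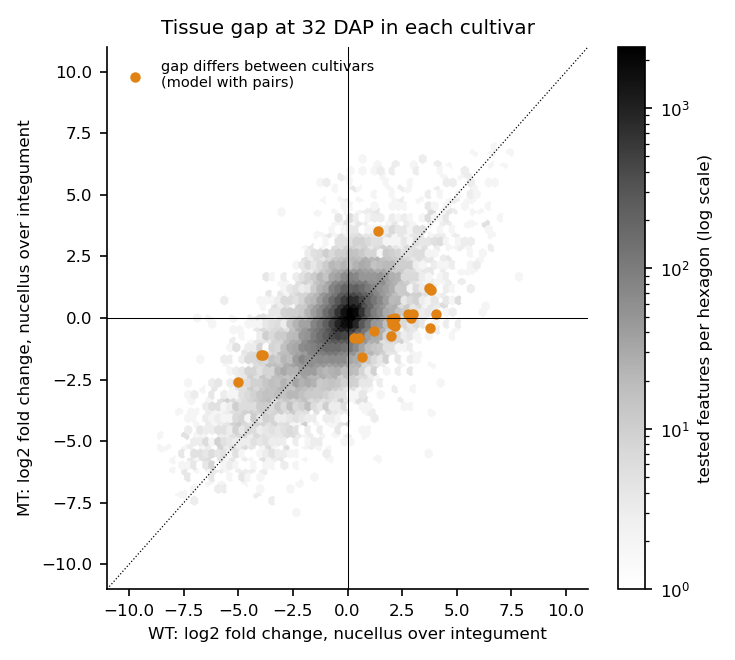
Gap at 32 DAP in MT (y axis) against WT (x axis), log2 fold change of nucellus over integument, for 57344 tested features counted per hexagon on a log grey scale, with the line of equality dotted. Orange points are the 21 features whose gap differed between cultivars in the model with pairs, 17 of them below the line of equality.

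Whether a gap itself differed between cultivars was tested as MT gap minus WT gap. Without pairs edgeR called no feature (smallest adjusted p = 0.0553), with 2731 features (4.76%) at an unadjusted p under 0.05. DESeq2 called 35, and limma called 4 with FPKM + 1 and 0 with FPKM + 0.1 on the log2 scale. With pairs edgeR called 21 (0.0366%), 4 (0.00698%) with a more positive gap in MT and 17 (0.0296%) with a more negative one. All 17 had a gap above 0 in WT. The absolute differences ran from 1.2 to 4.22 on the log2 scale. Without the second MT pair, the model with pairs called 2 features, 1 of them among the 21, although all 21 kept their sign.

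The feature c49227_g1 had 98.3, 67 and 88.7 CPM in MT nucellus and 131, 76.2 and 90.3 CPM in WT nucellus. In MT integument it had 22.2, 55.6 and 38.4 CPM, against 10.3, 4.69 and 6.3 CPM in WT integument. The nucellus ranges of the cultivars overlapped and the integument ranges did not. The gap was 1.13 ± 0.32 in MT and 3.8 ± 0.36 in WT, and the difference was -2.67 ± 0.46 without pairs (edgeR, adjusted p = 0.0553) and -2.63 ± 0.39 with pairs (edgeR, adjusted p = 0.0174).

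The feature c126563_g1 had 24.2, 26 and 20.9 CPM in MT nucellus and 39.3, 33 and 37.7 CPM in WT nucellus. It had 18.4, 31.8 and 20.8 CPM in MT integument and 8.01, 7.77 and 8.86 CPM in WT integument. The cultivars did not overlap in either tissue, with MT below WT in the nucellus and above it in the integument, and the tissues overlapped in MT but not in WT. Its gap was 0 ± 0.26 in MT and 2.16 ± 0.27 in WT, and the difference of -2.16 ± 0.37 was called with pairs (edgeR, adjusted p = 0.0281) and not without (edgeR, adjusted p = 0.0553).

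The widest difference among the 21 was that of c105438_g1, named after its values were seen. It had 9.11, 43.7 and 29.1 CPM in MT nucellus and 4.53, 5.38 and 5.55 CPM in WT nucellus. In the integument it had 12.5, 54.5 and 42.4 CPM in MT against 0.398, 0.284 and 0.427 CPM in WT. The MT values of both tissues went up and down together with the replicate number. The difference in gap was -4.22 ± 0.47 with pairs (edgeR, adjusted p = 0.00188) and -4.2 ± 1.5 without (edgeR, adjusted p = 0.832). With pairs and without the second MT pair it was still called (edgeR, adjusted p = 0.0156).

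Among gaps more positive in MT, the smallest p without pairs belonged to c42893_g1 and c88532_g1. The first had 7.39, 21.3 and 16.1 CPM in MT nucellus and 0.533, 1.28 and 0.992 CPM in WT nucellus, against 1.57, 1.99 and 0.706 CPM in MT integument and 5.13, 2.75 and 2.65 CPM in WT integument. The tissue order of c42893_g1 was thus opposite in the cultivars. Its gap was called in MT (3.39 ± 0.67; edgeR, adjusted p = 0.00133) and not in WT (-1.9 ± 0.64; edgeR, adjusted p = 0.0751). The difference in gap of 5.29 ± 0.92 missed the threshold without pairs (edgeR, adjusted p = 0.0553) and with them (edgeR, adjusted p = 0.0936). The feature c88532_g1 was lower in the nucellus in both, with a gap of -0.99 ± 0.43 in MT and -4.24 ± 0.49 in WT. Its difference of 3.25 ± 0.63 was not called (edgeR, adjusted p = 0.138). DESeq2 called the differences of c42893_g1 (adjusted p = 4.03e-05), c88532_g1 (0.00308), c49227_g1 (0.000195) and c126563_g1 (0.000204). Of these, limma on log2(FPKM + 1) called c42893_g1 alone (adjusted p = 0.00527).

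Against the earlier stages, the gap at 32 DAP was largely the gap seen before. At 18 DAP 10260 features (17.9%) were called, at 28 DAP 9978 (17.4%) and at 32 DAP 7584 (13.2%), and 5318 were called at all 3. Of the 7584, 760 were called at neither earlier stage. The median absolute gap over all tested features was 0.42, 0.42 and 0.36 at 18, 28 and 32 DAP, with a within-group SD of 0.54, 0.64 and 0.51 log2 CPM. The features called at 32 DAP had a median gap, signed by its direction at 32 DAP, of 1.67 at 18 DAP, 1.75 at 28 DAP and 1.77 at 32 DAP. Features called at 18 DAP had medians of 1.69, 1.38 and 1.22 over the 3 stages. A list's own stage gives the higher value in part because the list was chosen there.

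The 24 earlier libraries, analysed on their own, share no library with 32 DAP. Of the 54956 features tested in them, they called 15413 that were also tested here, and 98.2% of these had the same sign at 32 DAP. The same-sign share of all tested features is not given here, so 98.2% cannot be set against it. In the same direction 7005 (45.4%) were called at 32 DAP, against 13.2% of all tested features in either direction. The 7005 were 92.4% of the 32 DAP calls.

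**Figure D4:**
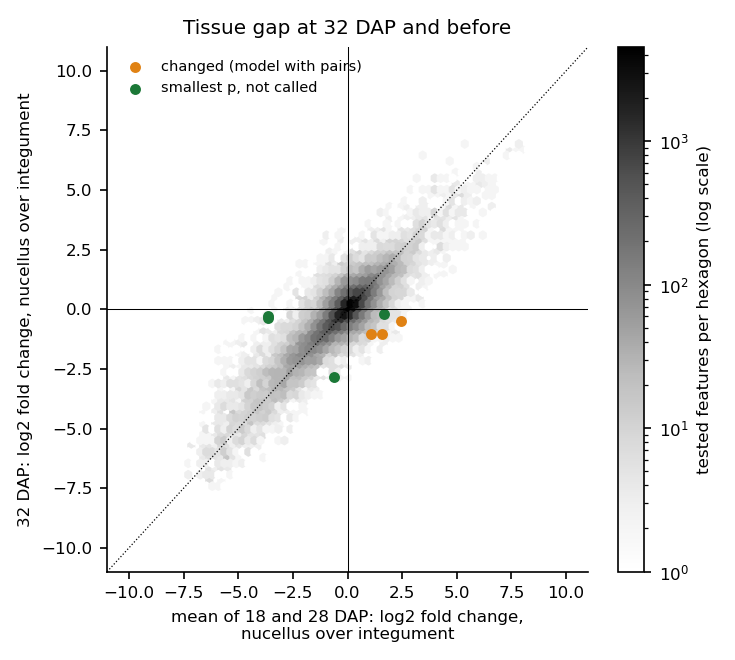
Mean gap of 18 and 28 DAP (x axis) against the gap at 32 DAP (y axis), log2 fold change of nucellus over integument, for 57344 tested features counted per hexagon on a log grey scale, with the line of equality dotted. Orange points are the 3 features whose gap changed in the model with pairs. Green points are the 2 features of smallest p in each direction in edgeR without pairs, none of which edgeR called without pairs.

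No gap was shown to exist at 32 DAP alone. To be counted, a feature had to be called at 32 DAP, be called for a change in that direction against the mean of 18 and 28 DAP, and have an unadjusted p of at least 0.05 at both earlier stages. The count was 0 in edgeR without pairs, with pairs, in DESeq2 and in limma. No feature was called for the gap at 32 DAP minus the mean of the earlier gaps (edgeR; smallest adjusted p = 0.322; 1383 features, 2.41%, at an unadjusted p under 0.05). DESeq2 called 11, limma 5 with FPKM + 1 and 1 with FPKM + 0.1, and edgeR with pairs 3 (0.00523%). Against 18 DAP alone 1 feature was called (0.00174%) without pairs and 14 (0.0244%) with them, and against 28 DAP alone 0 were called in both (1270 at an unadjusted p under 0.05 without pairs; DESeq2 called 3 and limma 0).

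The 3 features called with pairs are named after their values were seen. Without the second MT pair of 32 DAP, the model with pairs called 0 features for this change (2406 at an unadjusted p under 0.05). All 3 were nucellus-high at 18 DAP and had a gap below 0 at 32 DAP. At 32 DAP none of the 3 gaps was called without pairs, and with pairs c51117_g1 (-1.33 ± 0.31; edgeR, adjusted p = 0.00419) and c89048_g1 (-1.05 ± 0.24; edgeR, adjusted p = 0.0039) were integument-high. The feature c11808_g1 averaged 78.6 ± 21, 13.4 ± 5.58 and 15.4 ± 11.2 CPM in the nucellus at 18, 28 and 32 DAP (SD, n = 6), against 10.5 ± 8.73, 3.61 ± 2.2 and 21.7 ± 17.5 CPM in the integument. At 32 DAP the tissues overlapped, from 3.79 to 34.7 CPM in the nucellus and from 7.35 to 54.1 CPM in the integument. The gap at 32 DAP minus the earlier mean was -3.14 ± 0.4 with pairs (edgeR, adjusted p = 0.0124) and -2.91 ± 0.64 without (edgeR, adjusted p = 0.692). DESeq2, without pairs, called this change (adjusted p = 0.00861). The feature c11808_g1 was the single feature called at 18 and at 28 DAP whose gap was lost at 32 DAP by the paired test. Without pairs that count was 0 in edgeR and 4 in DESeq2.

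The feature c51117_g1 averaged 21.2 ± 4.52, 7.62 ± 3.39 and 3.98 ± 3.48 CPM in the nucellus at 18, 28 and 32 DAP, against 3.12 ± 1.65, 6.04 ± 1.28 and 8.31 ± 4.12 CPM in the integument. The tissues were fully apart at 18 DAP and overlapped at 32 DAP, where the MT nucellus libraries held 10.4, 0.996 and 0.914 CPM. Its gap changed from the earlier mean by -2.87 ± 0.37 with pairs (edgeR, adjusted p = 0.0124) and by -2.6 ± 0.51 without (edgeR, adjusted p = 0.368). DESeq2 (adjusted p = 0.00279) and limma on log2(FPKM + 1) (adjusted p = 0.0386) called this change. So did edgeR without pairs when MT nucellus library 1 of 32 DAP was left out (edgeR, adjusted p = 4.14e-05). The gap of c51117_g1 differed from that of 18 DAP by -3.87 ± 0.6 (edgeR, adjusted p = 0.0234; with pairs -4.21 ± 0.43, adjusted p = 0.000607). Without pairs, this call was lost when any of 10 single libraries was left out (edgeR, adjusted p 0.0503 to 0.0943), among them each of the 3 WT nucellus libraries of 32 DAP.

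The third, c89048_g1, averaged 11.1 ± 5.46, 3.54 ± 2.47 and 2.43 ± 1.14 CPM in the nucellus and 2.8 ± 1.34, 3.28 ± 1.67 and 4.94 ± 1.83 CPM in the integument at the same stages. Its ranges at 32 DAP overlapped. The change was called with pairs (-2.02 ± 0.3; edgeR, adjusted p = 0.0347) and not without (-2.12 ± 0.54; edgeR, adjusted p = 1).

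**Figure D5:**
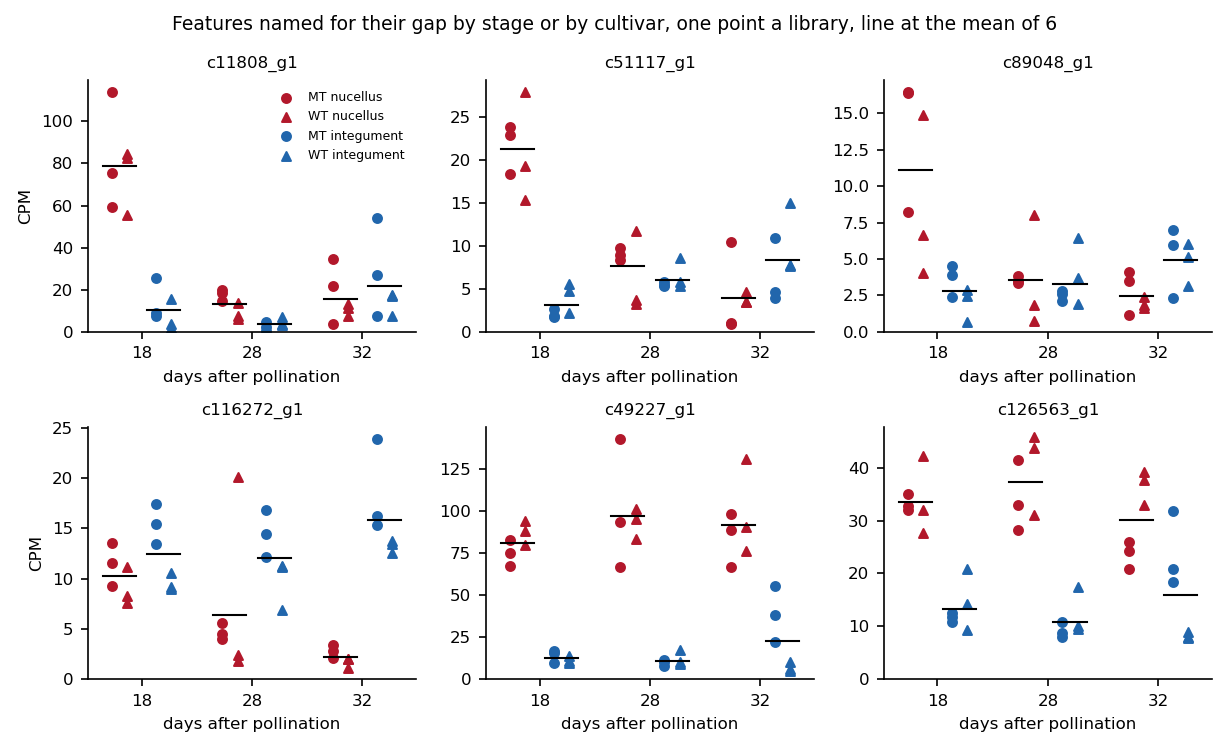
CPM of 6 features in all 36 libraries at 18, 28 and 32 DAP, nucellus (red) left of integument (blue), circles MT and triangles WT, with a line at the mean of 6 libraries. The nucellus levels of c11808_g1, c51117_g1 and c89048_g1 are high at 18 DAP, c116272_g1 is lowest in the nucellus at 32 DAP, and c49227_g1 and c126563_g1 are higher in MT than in WT integument at 32 DAP.

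A gap that widened to 32 DAP was nearest to a call in c116272_g1. Its lowest, median and highest levels in the nucellus were 7.57, 10.2 and 13.5 CPM at 18 DAP, 1.79, 4.25 and 20.1 CPM at 28 DAP and 1.11, 2.07 and 3.4 CPM at 32 DAP. In the integument they were 8.97, 11.9 and 17.4 CPM, then 6.84, 11.6 and 16.8 CPM, then 12.5, 14.5 and 23.9 CPM. The tissues overlapped at 18 DAP and were fully apart at 32 DAP. At 28 DAP they overlapped through WT nucellus library 1 alone, at 20.1 CPM. The other nucellus libraries of that stage held at most 5.55 CPM, below the lowest integument library at 6.84 CPM. The gap was -0.26 ± 0.34, -0.95 ± 0.34 and -2.84 ± 0.37 over the stages. The 32 DAP gap was called (edgeR, adjusted p = 1.1e-06) and its change from the earlier mean, -2.24 ± 0.43, was not (edgeR, adjusted p = 0.322). With pairs the gap was already called at 28 DAP (-1.34 ± 0.32; edgeR, adjusted p = 0.00404), and the change was again not called (edgeR, adjusted p = 0.267). Without pairs, edgeR called the change when any one of the 3 WT nucellus libraries of 28 DAP was left out. Without library 1, which held the 20.1 CPM, the change was smaller, at -1.77 (edgeR, adjusted p = 0.000903). The adjusted p was 0.0157 without library 2 and 0.0488 without library 3 (edgeR). DESeq2 called the change with all libraries kept (adjusted p = 0.00279).

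The other features named for the smallest p in their direction had gaps that narrowed. The feature c12043_g1 averaged 19.5 ± 5.47, 12 ± 7.25 and 5.4 ± 1.68 CPM in the nucellus at 18, 28 and 32 DAP, against 4.9 ± 1.24, 4.7 ± 0.965 and 6.22 ± 1.61 CPM in the integument, with a change of -1.89 ± 0.36 that was not called (edgeR, adjusted p = 0.322). DESeq2 called the change of c12043_g1 (adjusted p = 0.00279), as did limma on log2(FPKM + 1) (adjusted p = 0.0386), and edgeR called it without WT nucellus library 1 (edgeR, adjusted p = 0.0178) or library 2 (edgeR, adjusted p = 0.0157) of 28 DAP. The scarce features c10330_g1 and c27433_g1 were integument-high before 32 DAP. For c10330_g1 the nucellus averaged 0.134, 0.446 and 0.662 CPM over the stages and the integument 3.75, 2.43 and 0.755 CPM, and the change of 3.37 ± 0.68 was not called (edgeR, adjusted p = 0.392). For c27433_g1 the change was 3.3 ± 0.68 (edgeR, adjusted p = 0.415), at levels of at most 1.77 CPM in any library. DESeq2 called the changes of c10330_g1 (adjusted p = 0.0028) and c27433_g1 (adjusted p = 0.0106).

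Weaker evidence for gaps at 32 DAP alone was listed as a description, added after the data had been seen. A gap called at one stage had an unadjusted p of at least 0.05 at both others for 1368 features at 18 DAP (13.3% of its calls), 1061 at 28 DAP (10.6%) and 272 at 32 DAP (3.59%). Of the 272, 150 were nucellus-high and 122 integument-high, and 215 had the same sign at both earlier stages. When full separation at the stage and gaps under 1.5-fold at the others were also required, 163, 94 and 40 features were left. By both counts, 32 DAP had the fewest. The 40 had a median absolute gap of 0.79 on the log2 scale, and the smallest unadjusted p for their change was 0.00498.

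Among the 40, c4650_g1 had 6.44, 7.7 and 10.1 CPM in the nucellus at 32 DAP as lowest, median and highest, against 2.38, 3.1 and 5.45 CPM in the integument, a gap of 1.22 ± 0.3 (edgeR, adjusted p = 0.0049) after gaps of 0.54 ± 0.3 and 0.48 ± 0.3 at 18 and 28 DAP. The gap of c31176_g1 was 1.08 ± 0.31 (edgeR, adjusted p = 0.0184). In the opposite direction, c6650_g1 had 4.84, 5.42 and 6.51 CPM in the nucellus against 6.87, 10.2 and 23.3 CPM in the integument, a gap of -1.03 ± 0.29 (edgeR, adjusted p = 0.0155). The gap of c61286_g1 was -0.91 ± 0.26 (edgeR, adjusted p = 0.0165). The call of c6650_g1 was lost without MT integument library 2 (edgeR, adjusted p = 0.0735), that of c31176_g1 without the same library (0.0578) or WT nucellus library 1 (0.0562), and that of c61286_g1 without the second MT pair (0.0711) or the third WT pair (0.066) and in limma with FPKM + 1 (0.0782) and with FPKM + 0.1 (0.0968). With pairs in the model, c4650_g1 was also called at 18 DAP (edgeR, adjusted p = 0.0381), and c61286_g1 at 18 DAP (edgeR, adjusted p = 0.0292) and at 28 DAP (edgeR, adjusted p = 0.0199). In none of the 4 did the change from the earlier stages pass the test (edgeR, adjusted p = 1 for each).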

How the data were processed

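RNA-seq of laser-captured ovule tissue was deposited as 2 tables over 128861 features. The authors deposited expected counts from RSEM, per the submitters' processing notes, which name cutadapt, Bowtie2, RSEM and DESeq without versions. All count values were whole numbers, and where they were rounded is not recorded. The authors also deposited FPKM (fragments per length and library total). The reference was not given in the sources used here. RSEM divides reads between near-identical copies, so such features can share counts. The column names give the stage as a digit from 1 to 3, read as 18, 28 and 32 DAP in the order of the series' design text.

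Tests on the counts used edgeR 4.0.16 in R 4.3.3 (filterByExpr over 12 groups, TMM, 1 robust quasi-likelihood model of all 36 libraries with 12 group means, Benjamini-Hochberg adjustment over 57344 features). The biological coefficient of variation was 0.44. Alternatives used DESeq2 1.42.0 and limma 3.58.1, with limma run on log2(FPKM + 1) and log2(FPKM + 0.1), which understates the fold changes of low features. The procedure was tested on simulated data. Standard errors come from the quasi-likelihood F statistic. Intervals of count ratios cover counting error only, since reads carry no molecular identifiers. Correlations across features are descriptions.

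Pairing rests on the replicate numbers in the labels, which do not say whether same-numbered captures came from the same ovules. At 32 DAP the deviations of same-numbered tissues from their group means correlated in each of 6 pairs (r = 0.225 to 0.482). Between different numbers of a cultivar r ran from -0.368 to 0.195. Deviations from a group mean cancel within the group, so a positive r for the same number lowers those of the other numbers. The values across numbers are therefore not separate evidence of pairing. WT numbers 2 and 3 were hardly told apart, with r of 0.225 and 0.229 for the same number and 0.177 and 0.195 across. Over all 18 pairs r ran from 0.052 to 0.482. The lowest, of MT libraries 1 at 18 DAP, was below the 0.08 of MT nucellus library 1 with integument library 2. The paired model has 1 term for each of the 18 pairs.

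The naming rule took at most 2 features in each direction per comparison. Some of those called only with pairs or listed as descriptions were named besides. For the tissue gap they were called in both cultivars, at or above the median level, fully separated and of the largest gap. For the specific lists they were the most abundant, and for lists with no call those of smallest p. Exceptions are marked. The libraries and lists were chosen with earlier results of these data known.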

Additional observations from a re-analysis of the deposited data

Results flagged for a closer look

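In 8 of 76 groups of 6 libraries, 1 library lay far from the others by Dixon's test. The test's rate of about 1 in 20 groups holds for independent normal values. These groups shared libraries, and most held unlogged CPM of features chosen from the same data, so the 8 cannot be set against that rate. For 5 of the 8 groups the library was MT integument library 2. This library lay at -45.1 on the first principal component, and it held 1.1 CPM of c97589_g1, 23.9 CPM of c116272_g1, 47.3 CPM of c17955_g1 and 23.3 CPM of c6650_g1. The feature c17955_g1 was among the 21 whose gap differed between cultivars with pairs (edgeR, adjusted p = 0.0174). MT nucellus library 3 had the lowest total, 12976584 counts, and 38.8 CPM of c974_g1. WT integument library 3 had 5.45 CPM of c4650_g1.

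The gap differed between cultivars for 21 features and between 32 DAP and the earlier stages for 3 features in edgeR's model with pairs. Without the second MT pair of 32 DAP, that model called 2 and 0 features. Of the 3 features called with all libraries kept, c51117_g1 also differed from 18 DAP without pairs, by -3.87 on the log2 scale.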

How the results depend on the processing

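In the 12 alternatives other than leaving out 1 library, no feature called both there and in the reported fit of the tissue gap at 32 DAP had the opposite sign. The reported count of 7584 lay between 6165 (without WT nucellus library 3) and 8788 (without WT nucellus library 1 of 28 DAP) when 1 library was left out. It was 12694 with pairs when only the 12 libraries of 32 DAP were fitted, where MT had 7656, WT 8044 and the cultivar difference 191. The block on the replicate number, as 18 pairs, gave 6121 in MT, 6737 in WT, 21 for the cultivar difference, 3 and 14 for the change against the earlier mean and against 18 DAP, and 1 gap lost. DESeq2 gave 4775 in MT, 35 for the cultivar difference, 11, 29 and 3 for the changes against the earlier mean, 18 DAP and 28 DAP, and 4 lost. With no filter on low counts the cultivar difference had 5 calls and the change against 18 DAP had 7. On log2(FPKM + 1) limma gave 4, 5, 30 and 1 (cultivar difference, earlier mean, 18 DAP, lost), and on log2(FPKM + 0.1) it gave 1 and 15 (earlier mean, 18 DAP). Without MT pair 2 MT had 1702, and with pairs 6637 were called in WT, 2 for the cultivar difference, 0 against the earlier mean and 5 against 18 DAP; without WT pair 3, WT had 1752 and the change against 18 DAP 0. Nucellus-specific features numbered 20 without MT pair 2 (with or without the replicate block), 0 with no count allowed in the other tissue, 45 with up to 10 counts, 24 at 0.5 CPM and 1 at 5 CPM. Integument-specific features numbered 80, 2, 158, 73 and 1 under the same settings. Leaving out 1 library gave 1560 to 4040 in MT, 2444 to 4709 in WT, 0 to 10 for the cultivar difference (10 without WT integument library 1 of 28 DAP), 0 to 2 against the earlier mean, 0 to 11 against 18 DAP (11 without WT nucellus library 1 of 28 DAP), 0 to 1 lost, 13 to 17 nucellus-specific and 38 to 68 integument-specific features (68 without MT integument library 2). The gaps against 28 DAP alone and at 32 DAP alone stayed at 0 in these. The causes were not tested. Removing MT pair 2 or WT pair 3 was chosen after seeing the data. At these depths, levels under about 0.133 to 0.206 CPM could not be told from 0.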
